A study of Mus musculus with 5 samples.

Results

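Carbonic anhydrases are zinc enzymes that convert carbon dioxide and water into bicarbonate and a proton. The RNA of 8 of them (Car2, Car3, Car4, Car6, Car8, Car12, Car13 and Car14) is described here, out of 16 carbonic anhydrase genes and 56941 gene identifiers in the count table. The 8 genes were chosen by symbol when their differences between the genotypes in these same pools were already known, the low Car6 count in DBA/2J included. Their differences between the genotypes are therefore given as a description, with no test.

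RNA-seq was performed on the iridocorneal region of the mouse eye, the ring between iris and cornea through which aqueous humor drains, dissected with remnants of iris and ciliary body. DBA/2J is an inbred strain that develops pigmentary glaucoma and carries a nonsense mutation in Gpnmb together with the Tyrp1 b allele. Gpnmb+ (DBA/2J-Gpnmb+/SjJ) is the matched strain with functional Gpnmb, and it keeps the same Tyrp1 b allele. There were 3 DBA/2J pools and 2 Gpnmb+ pools from untreated animals of 12 months. Each pool is described as 3 mice, with males and females in each group, but the names of the Gpnmb+ libraries list 2 animals each. Pools average over their animals, so every SD below measures the spread between pools, not between animals. The p-values below compare pools, with the spread of each gene estimated in part from other genes. In bulk tissue, fewer cells of a type and less RNA per cell cannot be told apart.

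Bicarbonate made by carbonic anhydrases drives part of the ion and water movement by which the ciliary epithelium secretes aqueous humor. Inhibitors of these enzymes, such as acetazolamide and dorzolamide, are used to lower eye pressure. The family is divided by where the protein sits: Car2, Car3, Car13 and Car8 are cytosolic, Car4 is held on the outer cell surface by a lipid anchor, Car12 and Car14 span the membrane with the catalytic domain outside, and Car6 is secreted. Active enzymes hold zinc with 3 histidines. Car8 is a carbonic anhydrase-related protein without that enzyme activity and is known to bind the inositol trisphosphate receptor.

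The coding sequence around the first and the second of these zinc ligands is shown for 7 of the genes, because it is the part of the active site that the enzymes share. The stretches are read 5′ to 3′ on the coding strand of the reference mouse genome (GRCm39, GENCODE M39 transcripts), not from DBA/2J reads. Capitals mark the codons of the first and the second ligand.
Car2: tttCACtttCACtggggctcatctgat
Car3: ttcCATcttCACtggggctcctctgat
Car13: ttcCATttgCACtgggggtcagcagat
Car4: ttgCACctgCACtggtcaaatgggaat
Car12: ctgCACttgCACtgggggaaccgcaat
Car14: ctcCACctgCACtggggtcagagagga
Car6: tttCACtttCACtgggggggtcgggac

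The stretches lie in exon 3 of Car2 (chr3:14960126-14960152, plus strand), Car3 (chr3:14931907-14931933, plus), Car13 (chr3:14715763-14715789, plus) and Car6 (chr4:150281829-150281855, minus). They lie in exon 4 of Car4 (chr11:84854990-84855016, plus), Car12 (chr9:66654926-66654952, plus) and Car14 (chr3:95807606-95807632, minus). In these 7 genes the translated sequence had histidine at all 3 ligand positions. Among the other 8 family genes, Car10 had 1 histidine at these positions and Car11 had 0, and the remaining genes had 3. Across the whole translated proteins the closest pair of the 8 was Car3 and Car13 with 60.8% identical residues, followed by Car2 and Car3 with 56.9%. The least alike were Car4 and Car8, with 30.1%.

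Counts on genes summed to between 43900661 and 49837758 per pool, and 19713 genes had at least 10 counts in at least 1 pool and were tested. Levels below are CPM (each count scaled to a library of 1e+06 counts, with library sizes adjusted by the TMM method), and differences are log2 fold changes from edgeR, positive where DBA/2J was higher. A gene counted as called when its edgeR p-value, adjusted by the Benjamini-Hochberg method, was no higher than 0.05 and its change was 1.5-fold or more, which 157 genes met (0.796% of those tested). Counts of genes at an unadjusted p under 0.05 are given below without the share of all tested genes, so nothing is read from them. Gpnmb itself was at 45.9, 52.0 and 43.6 CPM in DBA/2J and at 2560 and 2260 CPM in Gpnmb+, as the genotypes are labelled. Gpnmb+ pool 2 stood apart in retinal RNA, and the Gpnmb+ pools held almost no Y-linked Ddx3y RNA (0 and 4 counts) against 3608, 4168 and 1567 counts in DBA/2J. Xist, the RNA of the inactive X chromosome, was counted 596, 0 and 2417 times in DBA/2J and 7843 and 9152 times in Gpnmb+. The males described for the Gpnmb+ group are not seen in these counts, and the reason is not known. The sex make-up of the libraries and the genotype cannot be told apart here.

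All 8 genes passed the count minimum. In 5 of them (Car3, Car4, Car6, Car8 and Car12) every DBA/2J pool lay below both Gpnmb+ pools, an ordering met by 17.2% of all tested genes. In Car2 every DBA/2J pool lay above both Gpnmb+ pools, an ordering met by 17.3% of tested genes. Car13 and Car14 overlapped between the genotypes. The call was met by 1 of the 8, Car6, beside 0.796% of all tested genes. The median log2 fold change of the 8 was -0.84, and that of all tested genes was -0.02. Because the genes were selected on this contrast, nothing is read from these counts.

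**Figure D1:**
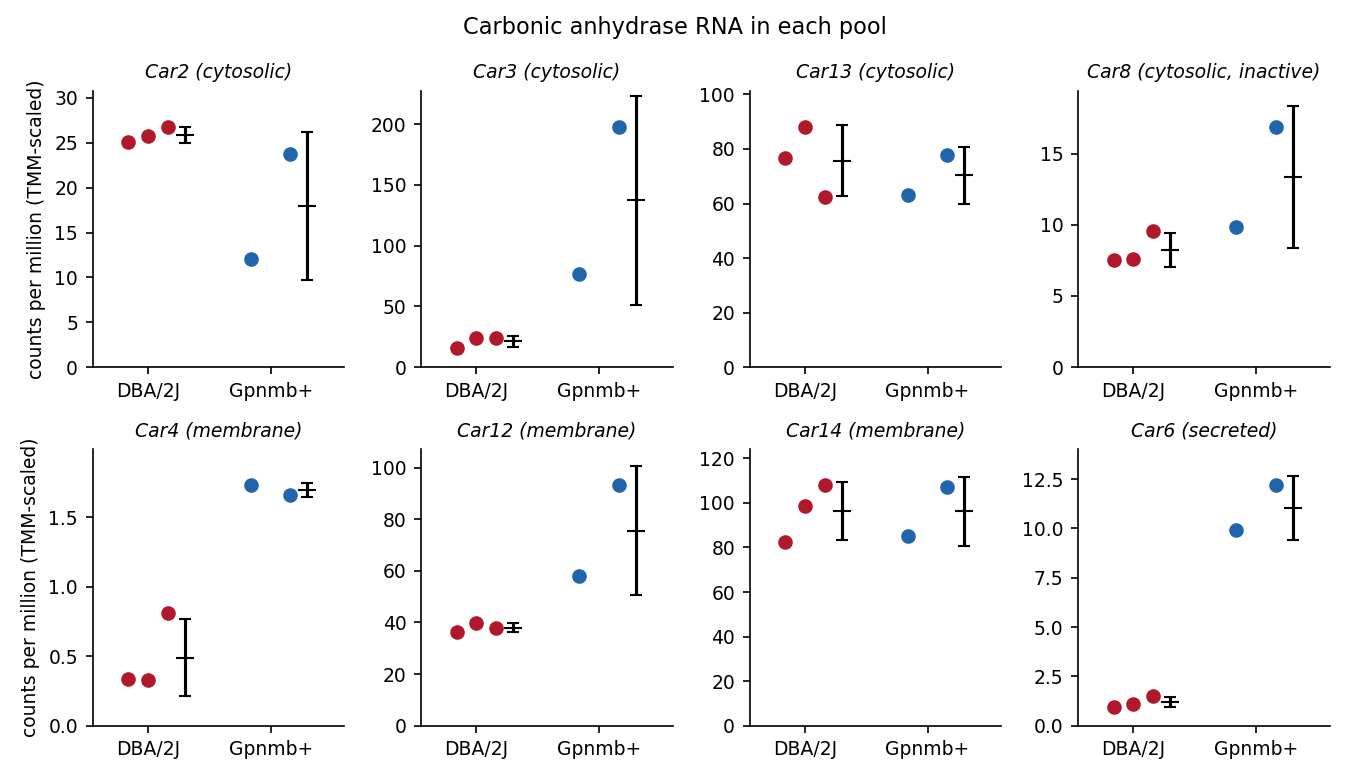
Level of each of the 8 carbonic anhydrase genes in TMM-scaled CPM (vertical axes, each starting at 0) in the 3 DBA/2J pools (red points) and 2 Gpnmb+ pools (blue points). Black bars are the mean ± SD of each group. The DBA/2J points lie below both Gpnmb+ points for Car3, Car8, Car4, Car12 and Car6, above them for Car2, and among them for Car13 and Car14.

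Car6, the secreted member, best known from saliva and tears, had the largest difference of the 8. It was counted 43, 48 and 66 times in the DBA/2J pools and 503 and 598 times in the Gpnmb+ pools. The level was 1.19 ± 0.263 CPM (SD, n = 3) in DBA/2J and 11.1 ± 1.63 CPM (SD, n = 2) in Gpnmb+. Both Gpnmb+ pools were high and close to each other, and the groups were far apart. The fitted log2 fold change was -3.22 (SE 0.23), a level 9.29-fold higher in Gpnmb+. It stayed between -3.40 and -3.06 over 10 alternative settings, each pool left out in turn among them. The call was lost without DBA/2J pool 1 (6 genes of the whole table called), without DBA/2J pool 2 (1 gene called) and without Gpnmb+ pool 2. Car6 lies on chr4:150271472-150285789, minus strand, and no annotated gene overlaps it.

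Genes that mark the glands where Car6 RNA is abundant were looked at in the same pools, from a list of 13 lacrimal and salivary acinar genes. Bpifa2, a secreted salivary protein, was counted 21, 16 and 7 times in DBA/2J and 145 and 335 times in Gpnmb+. It was lower in DBA/2J (log2 fold change -3.85, SE 0.54, edgeR quasi-likelihood test, Benjamini-Hochberg adjusted p = 0.0484). Salivary amylase, Amy1, was counted 99, 157 and 147 times in DBA/2J and 273 and 332 times in Gpnmb+ (log2 fold change -0.99, adjusted p = 0.15 by edgeR). All 6 tested genes of the list had lower fitted levels in DBA/2J, 1 of them called, and 4 (Dcpp2, Dcpp3, Smr2 and Prol1) were at 0 in all 5 pools. The summed list ranged from 79.3 to 206 CPM in DBA/2J and from 184 to 334 CPM in Gpnmb+, most of it Aqp5, a water channel that corneal epithelium also makes. The part of gland RNA in the Car6 difference was not tested.

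**Figure D2:**
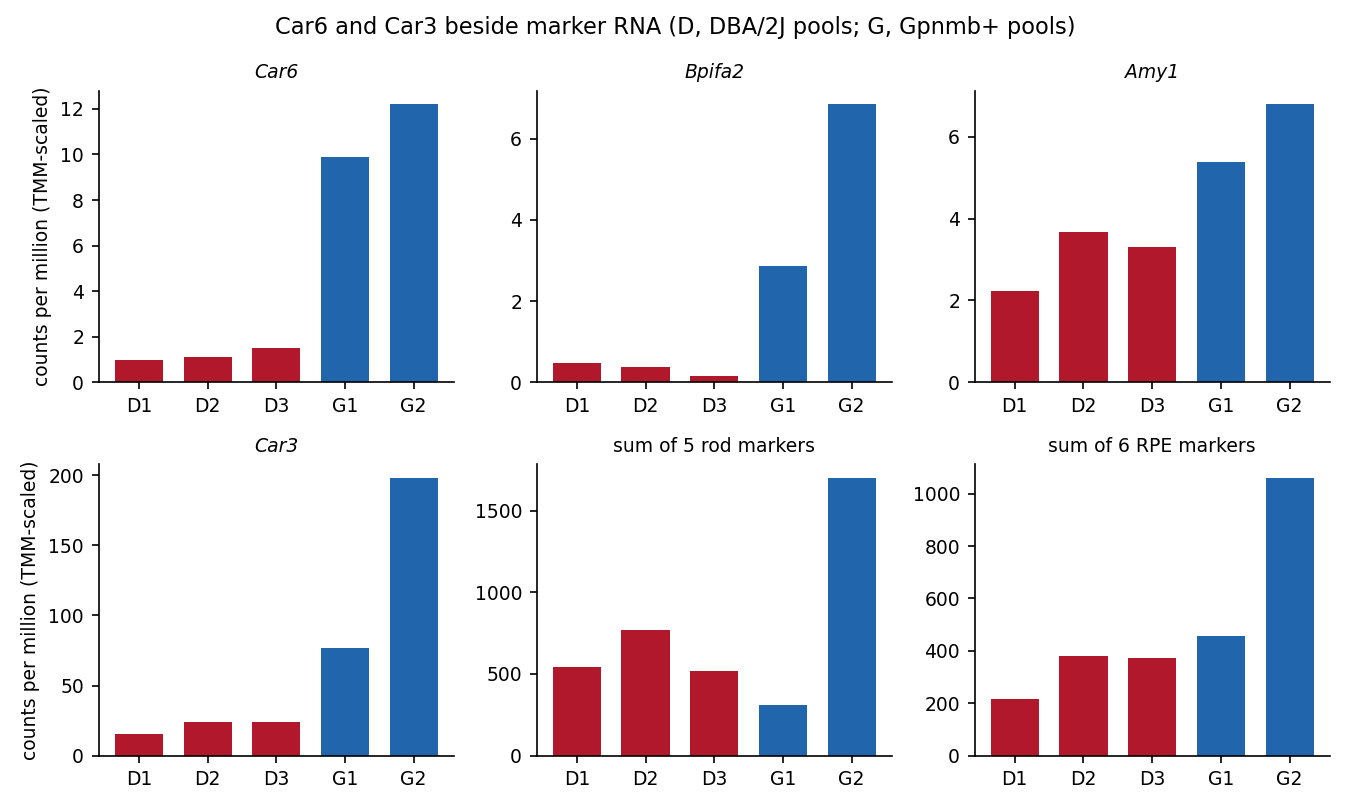
Car6 and Car3 beside marker RNA, in TMM-scaled CPM for each pool (bars, from 0; red, DBA/2J pools D1 to D3; blue, Gpnmb+ pools G1 and G2). Car6, Bpifa2 and Amy1 are higher in both Gpnmb+ pools. Car3 is highest in Gpnmb+ pool 2, the pool with the highest summed rod (1700 CPM) and retinal pigment epithelium (1060 CPM) markers. Gpnmb+ pool 1 has the lowest rod sum (313 CPM), and its Car3 (76.5 CPM) is above every DBA/2J pool.

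By the distance between centred log2 CPM profiles over the 5 pools, the genes most like Car6 were Prb1b (root mean square distance 0.22), Pax3 (0.23), Syt4 (0.23), Ighv1-26 (0.24) and Cort (0.32). Prb1b, a salivary proline-rich protein gene, had 0 counts in all DBA/2J pools and 19 and 18 in Gpnmb+. Syt4, a synaptotagmin, was counted 267, 364 and 422 times in DBA/2J and 2554 and 2790 times in Gpnmb+. Pax3, a transcription factor of neural crest and melanocyte lineages, had 18, 16 and 27 counts against 163 and 174. Prb1b and Ighv1-26 belong to families of near-identical genes, so their counts are uncertain. The fitted log2 fold changes of Prb1b, Ighv1-26 and Cort were -7.11, -4.16 and -4.63, against -3.22 for Car6. Those of Pax3 and Syt4 were -2.87 and -2.75. Distances used log2 CPM with a prior count of 2, which shrinks differences at low counts. Nothing is therefore read from the ranks of Prb1b, Ighv1-26 and Cort.

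Car3, Car2 and Car13 are cytosolic enzymes whose genes lie together on chromosome 3. With Car1 they fill 261 kb (chr3:14706783-14967568), a stretch with no other protein-coding gene. Their differences between the genotypes ran in different directions. Car3 was lower in DBA/2J, Car2 was slightly higher, Car13 overlapped, and Car1, the erythrocyte enzyme, had 0 counts in all pools, which allows at most 0.0699 CPM in the pool with the highest limit (3 counts, counting error only).

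Car3 has low enzyme activity and is known from muscle and fat. It was counted 687, 1038 and 1058 times in DBA/2J and 3880 and 9684 times in Gpnmb+. The levels were 15.5, 24.2 and 23.7 CPM in DBA/2J and 76.5 and 198 CPM in Gpnmb+. The groups did not overlap, but Gpnmb+ pool 2 was 2.59-fold above Gpnmb+ pool 1. The log2 fold change was -2.70 (SE 0.41), a level 6.50-fold higher in Gpnmb+, and leaving out Gpnmb+ pool 2 or pool 1 gave -1.86 or -3.23.

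Markers of muscle and fat, tissues rich in Car3, and of retina were read in the same pools. The 10 skeletal muscle genes summed to between 225 and 529 CPM in DBA/2J and to 223 and 143 CPM in Gpnmb+, and 9 of the 10 had higher fitted levels in DBA/2J with 0 called by edgeR (3 at an unadjusted p under 0.05). The 9 adipocyte genes summed to between 32.8 and 43.0 CPM in DBA/2J and to 28.4 and 38.4 CPM in Gpnmb+, nearly all of it Fabp4, with 0 called by edgeR (1 at an unadjusted p under 0.05). Adiponectin (Adipoq) had 5 to 15 counts in every pool. Plin1 had 2 to 10 counts, Cidec at most 4, Retn at most 5 and Lep at most 1, while Thrsp had 80 to 99. The adipocyte sum therefore reads little beyond Fabp4. Rod photoreceptor markers (5 genes) summed to 541, 768 and 519 CPM in DBA/2J and to 313 and 1700 CPM in Gpnmb+. Retinal pigment epithelium markers (6 genes) summed to 218, 380 and 372 CPM in DBA/2J and to 458 and 1060 CPM in Gpnmb+. In neither list was a gene called by edgeR (0 rod and 4 pigment epithelium genes at an unadjusted p under 0.05). Nothing is read from these unadjusted counts. In both lists Gpnmb+ pool 2, the pool with most Car3, was the highest, and in the rod list Gpnmb+ pool 1 was the lowest. The part of muscle, fat or retina in the Car3 difference was not tested.

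The 5 genes nearest to Car3 by the same distance were chosen for listing after its values were seen. They were Nphs1 (0.27), Lrfn5 (0.30), Gm54728 (0.34), Ighv7-2 (0.34) and Nefm (0.35). Nphs1, Gm54728 and Ighv7-2 had at most 7 counts in any DBA/2J pool, so the prior count limits their ranks too. Their fitted log2 fold changes were -2.91, -2.63 and -6.02. Nefm, a neurofilament subunit of axons, was counted 253, 562 and 342 times in DBA/2J and 2355 and 3624 times in Gpnmb+. An uncharacterised antisense gene, Gm56774, shares 177 exonic bases with Car3 but was counted only 1, 2 and 2 times in DBA/2J and 5 and 24 times in Gpnmb+.

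Car2 is the high-activity enzyme of the ciliary epithelium and a principal target of the glaucoma drugs. It was counted 1116, 1104 and 1196 times in DBA/2J and 614 and 1164 times in Gpnmb+. On the CPM scale the DBA/2J pools lay between 25.1 and 26.8, Gpnmb+ pool 2 was just below them at 23.8, and Gpnmb+ pool 1 was at 12.1. The log2 fold change of 0.53 (SE 0.27) rested on Gpnmb+ pool 1. Leaving that pool out gave 0.12, and leaving out Gpnmb+ pool 2 gave 1.10. Gpnmb+ pool 1 also had the lowest erythroid marker sum (50.1 CPM over 6 genes, against 79.0 to 170 CPM in the other pools) and the lowest rod sum. The part of blood or retina in the Car2 level was not tested.

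The tested gene with the profile nearest to Car2 was Gm31332 (distance 0.06), followed by Otud7a and Cdrt4 (both 0.08), then Pcdhb1 and Katnal2 (both 0.10). All had at most 63 counts per pool and, like Car2, were lowest in Gpnmb+ pool 1.

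Car13, another cytosolic enzyme, was counted 3404, 3785 and 2783 times in DBA/2J and 3197 and 3801 times in Gpnmb+. The level was 75.7 ± 12.9 CPM (SD, n = 3) in DBA/2J and 70.4 ± 10.4 CPM (SD, n = 2) in Gpnmb+. The groups overlapped and the log2 fold change was 0.11 (SE 0.17), which changed sign in 2 of 10 alternative settings. Neither direction is claimed for it.

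Car8, the related protein without enzyme activity, was counted 334, 325 and 428 times in DBA/2J and 499 and 825 times in Gpnmb+. DBA/2J pool 3 (9.59 CPM) came close to Gpnmb+ pool 1 (9.83 CPM), and Gpnmb+ pool 2 stood above both at 16.9 CPM. The log2 fold change of -0.70 (SE 0.25) became -0.26 without Gpnmb+ pool 2.

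Among the membrane-bound enzymes, Car12 and Car4 were lower in DBA/2J and Car14 was level between the genotypes. Car12 has its active site outside the cell and has been found in ciliary epithelium. It was counted 1607, 1713 and 1696 times in DBA/2J and 2941 and 4559 times in Gpnmb+. The DBA/2J pools were close together (38.0 ± 1.88 CPM, SD, n = 3), while the Gpnmb+ pools were higher and spread apart (75.6 ± 24.9 CPM, SD, n = 2). The log2 fold change was -0.99 (SE 0.19), -0.61 without Gpnmb+ pool 2 and -1.29 without Gpnmb+ pool 1.

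Car4, the lipid-anchored enzyme of capillary and epithelial surfaces, had few counts. They were 15, 14 and 36 in DBA/2J and 88 and 81 in Gpnmb+, or 0.490 ± 0.274 CPM (SD, n = 3) against 1.70 ± 0.0555 CPM (SD, n = 2). It was the only member of the 8 that was not higher in Gpnmb+ pool 2 than in Gpnmb+ pool 1. The log2 fold change was -1.78 (SE 0.44), a level 3.44-fold higher in Gpnmb+, and -2.34 without DBA/2J pool 3. The 6 capillary endothelial markers summed to between 342 and 480 CPM in DBA/2J and to 411 and 362 CPM in Gpnmb+, with 0 called by edgeR and 0 at an unadjusted p under 0.05.

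Car14, the membrane enzyme known from retina and liver, was counted 3661, 4224 and 4818 times in DBA/2J and 4326 and 5242 times in Gpnmb+. The group means were 96.3 ± 13.0 CPM (SD, n = 3) and 96.2 ± 15.5 CPM (SD, n = 2), the pools were interleaved, and the log2 fold change was 0.00 (SE 0.15). Over the 10 alternative settings it ran from -0.15 to 0.18.

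Car12 and Car14 each overlap a gene on the opposite strand that encodes a gamma-secretase subunit. Aph1b shares 293 exonic bases with Car12 and Aph1a shares 486 with Car14. No source says whether counting used strand, so reads from those bases cannot be assigned with certainty. Aph1b was counted 1122, 1255 and 1190 times in DBA/2J and 1399 and 1189 times in Gpnmb+. Aph1a had between 2135 and 2532 counts in every pool. The part of reads from the shared bases in the Car12 and Car14 counts was not tested.

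**Figure D3:**
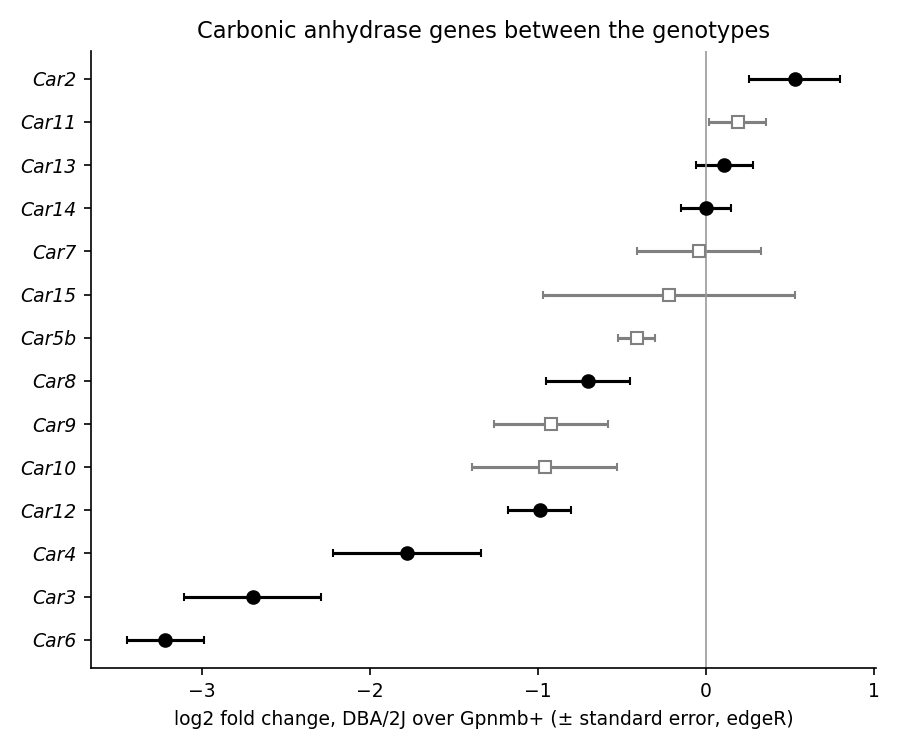
Log2 fold change of DBA/2J over Gpnmb+ (horizontal axis, ± standard error from edgeR) for the 14 carbonic anhydrase genes with enough counts to be tested. Filled circles are the 8 described genes and open squares the other family genes. Car6 and Car3 lie farthest to the left at -3.22 and -2.70, and Car14 lies at 0.00.

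To compare levels between genes, CPM was divided by the merged exon length in kilobases (a per-length level, equal to RPKM on the TMM scale). In DBA/2J the order of per-length levels began with Car13 (30.3 ± 5.16) and Car14 (29.5 ± 3.98), whose pools overlapped. The mitochondrial enzyme Car5b (7.71 ± 0.728), Car3 (6.83 ± 1.59) and Car2 (5.87 ± 0.196) came next, each overlapping its neighbour in the order. Car12 (4.49 ± 0.222) lay below all of them without overlap. Car6 (0.654 ± 0.145), Car9 and Car8 (0.552 ± 0.0795) overlapped in turn, and Car4 (0.143 ± 0.0802) was the lowest of the 8 (SD, n = 3 throughout).

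In Gpnmb+ the per-length order was led by Car3 (44.4 ± 27.8), but its pools overlapped those of Car14 (29.5 ± 4.75) and Car14 overlapped Car13 (28.1 ± 4.16). Car5b and Car12 (8.93 ± 2.94) overlapped. Car6 (6.10 ± 0.900) lay below Car12 and above Car2 (4.07 ± 1.88) with no shared range. Car8 (0.896 ± 0.334) and Car4 (0.495 ± 0.0162) were again at the low end (SD, n = 2 throughout). By merged exon length Car6 stood in place 8 of 16 in DBA/2J and 6 of 16 in Gpnmb+, and Car3 in place 4 and 1.

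These places depend on the length used. With the length of the canonical transcript, Car6 stood in place 10 in DBA/2J and 7 in Gpnmb+, and Car3 in place 5 and 1. Car2 then lay above Car3 in DBA/2J (mean per-length levels of 13.3 and 11.7) and above Car6 in Gpnmb+ (9.21 and 7.06). Car8, whose merged exons span 14907 bases against 3900 in the canonical transcript, moved above Car6 in DBA/2J (2.11 and 0.758).

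The summed per-length level of the 16 genes was 82.9, 97.4 and 88.3 in DBA/2J and 106 and 167 in Gpnmb+, and the 8 described genes made up between 86.7% and 91.3% of it. Without Car3 the sums were 77.9, 89.6 and 80.6 against 81.7 and 103. Car3 was 6.02%, 8.02% and 8.68% of the family level in DBA/2J and 23.2% and 38.3% in Gpnmb+. Car13 went from 33.8% ± 4.80 (SD, n = 3) in DBA/2J to 21.1% ± 3.60 (SD, n = 2) in Gpnmb+, and Car14 from 33.0% ± 3.94 to 22.1% ± 3.48. The own levels of Car13 and Car14 were alike in both genotypes, but the total was higher in both Gpnmb+ pools.

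**Figure D4:**
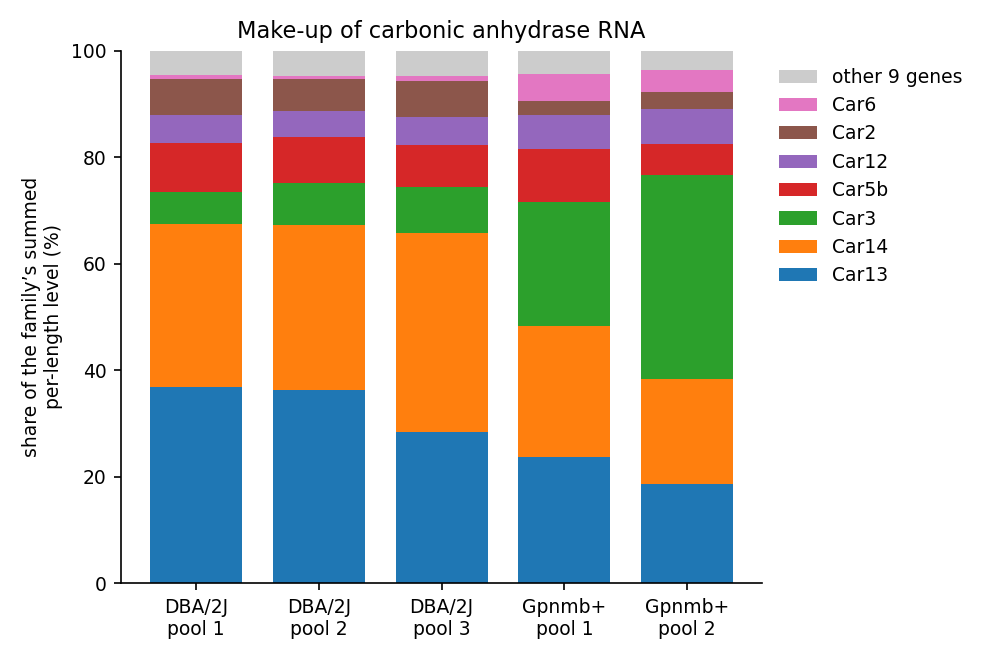
Share (percent) of the summed per-length level of the 16 carbonic anhydrase genes taken by each gene in each pool, with the other 9 genes joined in grey. The green Car3 segment is 6.02% to 8.68% in DBA/2J and 23.2% and 38.3% in Gpnmb+.

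Of the 8 other family genes, 6 were tested and 0 were called by edgeR. At an unadjusted p under 0.05 by edgeR there were 2, from which nothing is read. Car5b, a mitochondrial enzyme, was counted 2196, 2310 and 1986 times in DBA/2J and 3449 and 3082 times in Gpnmb+ (log2 fold change -0.41, SE 0.11, Benjamini-Hochberg adjusted p = 0.147 by edgeR). Car9, a membrane enzyme induced by low oxygen, was counted 60 to 71 times in DBA/2J and 92 and 182 times in Gpnmb+ (log2 fold change -0.92, adjusted p = 0.277 by edgeR). Car10, Car11, Car7 and Car15 overlapped between the genotypes, with log2 fold changes of -0.96, 0.19, -0.04 and -0.22. Car5a, also mitochondrial, had at most 4 counts in any pool and was not tested.

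Carbonic anhydrases work with carriers that move bicarbonate, protons, chloride and lactate. In a list of 23 such genes, 22 were tested, and 15 had higher and 7 lower fitted levels in DBA/2J. Their median log2 fold change was 0.19. The call was met by 1 higher and 1 lower gene, beside 0.796% of all tested genes, and 8 were at an unadjusted p under 0.05. The last count has no share over all tested genes beside it, and nothing is read from it. Slc4a11, a proton transporter of corneal endothelium, fell from 23.5 ± 3.23 CPM (SD, n = 2) in Gpnmb+ to 6.98 ± 1.31 CPM (SD, n = 3) in DBA/2J (log2 fold change -1.75, SE 0.19, Benjamini-Hochberg adjusted p = 0.0283 by edgeR). Slc16a1, a lactate and proton carrier, rose from 63.0 ± 6.04 to 102 ± 3.35 CPM (log2 fold change 0.69, SE 0.09, adjusted p = 0.0452 by edgeR). Both calls were lost with any DBA/2J pool or Gpnmb+ pool 2 left out, settings in which at most 17 genes of the whole table were called, and Slc16a1 was also lost without Gpnmb+ pool 1. The next largest differences did not pass: Slc4a10, a sodium bicarbonate carrier (-1.48, adjusted p = 0.117), Best2, an anion channel of the nonpigmented ciliary epithelium (1.43, adjusted p = 0.163), Slc26a4, an anion exchanger (1.01, adjusted p = 0.131), and the sodium-proton exchanger Slc9a3 (-0.96, adjusted p = 0.699, at most 10 counts), all by edgeR. Slc26a3 had 0 counts in all pools.

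Among 10 genes of the ion and water path of aqueous humor secretion, 0 were called by edgeR. At an unadjusted p under 0.05 by edgeR there were 7, a count without its share over all tested genes, from which nothing is read. DESeq2, which called 927 genes of the whole table, called 4 of the 10, with Aqp4, Atp1b3 and Slc12a2 among them. The water channel Aqp4 was at 187, 168 and 152 CPM in DBA/2J and at 70.4 and 32.0 CPM in Gpnmb+ (log2 fold change 1.72, adjusted p = 0.0867 by edgeR). The sodium pump subunit Atp1b3 (0.84, adjusted p = 0.082 by edgeR) also had all DBA/2J pools above both Gpnmb+ pools. Slc12a2, the sodium-potassium-chloride cotransporter, had all DBA/2J pools below (-0.70, adjusted p = 0.144 by edgeR).

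**Figure D5:**
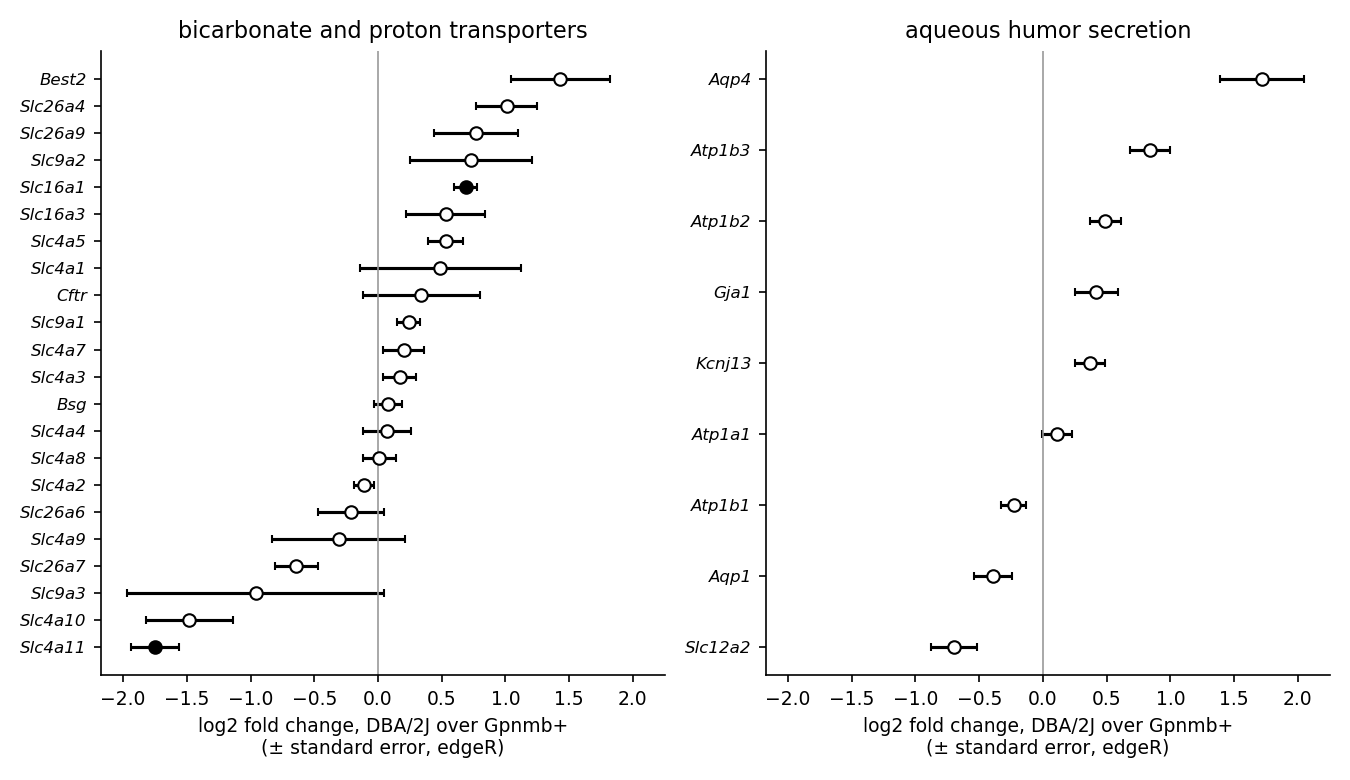
Log2 fold change of DBA/2J over Gpnmb+ (horizontal axes, ± standard error from edgeR) for the 22 tested bicarbonate and proton carriers (left) and 9 of the 10 aqueous humor secretion genes (right). Filled points passed the call (Slc16a1 at 0.69 and Slc4a11 at -1.75) and open points did not.

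Markers of the tissues in the dissected ring were present but differed between pools. The 6 nonpigmented ciliary epithelium genes summed to 870, 979 and 1110 CPM in DBA/2J and to 355 and 188 CPM in Gpnmb+, with all 6 higher in DBA/2J and 1 called (Six6, log2 fold change 1.74, edgeR adjusted p = 0.0265). Their median log2 fold change was 1.61, and all 6 were at an unadjusted p under 0.05 by edgeR. Nothing is read from the unadjusted counts in this paragraph, because their share over all tested genes is not given. Of the members placed in ciliary epithelium, Car2 had every DBA/2J pool above both Gpnmb+ pools, and Car12 had every DBA/2J pool below both. In Gpnmb+ pool 1 and pool 2, Car2 was at 12.1 and 23.8 CPM and Car12 at 58.0 and 93.2 CPM. The 5 trabecular meshwork genes summed to between 6400 and 6940 CPM in DBA/2J and to 6170 and 5440 CPM in Gpnmb+, and 0 were called by edgeR (4 at an unadjusted p under 0.05). Chil1 carried that sum (3450 CPM in DBA/2J and 1530 CPM in Gpnmb+), while the other 4 genes had lower fitted levels in DBA/2J and the list's median log2 fold change was -0.44. The 7 pigment cell genes summed to between 3430 and 4540 CPM in DBA/2J and to 4300 and 3680 CPM in Gpnmb+, with 1 called lower. The corneal epithelium (6 genes) ranged from 3450 to 6330 CPM against 8080 and 6190 CPM, with Krt5 the most abundant and 0 called by edgeR. In that list Krt12 (log2 fold change -3.16, SE 1.16) and Slurp1 (-3.18, SE 0.89) had every DBA/2J pool below both Gpnmb+ pools, and the other 4 genes overlapped. The corneal endothelium (3 genes, Slc4a11 among them) ranged from 500 to 534 CPM against 557 and 651 CPM. Myelinating Schwann cell genes (5 genes) ranged from 139 to 184 CPM against 211 and 255 CPM, with 1 called lower. The part of these tissues in the carbonic anhydrase differences was not tested.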

How the data were processed

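Reads were trimmed with fastp and aligned with STAR to GRCm39, per the labels and the study's methods (versions not given in the sources used here). The authors deposited counts of the reads that aligned uniquely to each gene, not normalized, in 1 table whose 5 columns matched the 5 pools. Whether counting used strand is not given. GENCODE M39 held 56323 of the 56941 identifiers and gave symbols, exon lengths and coordinates. RefSeq synonyms gave 1 older symbol (Chil1), and the listed gene Ahsp was not matched.

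The main test was edgeR 4.0.16 in R 4.3.3 (TMM, quasi-likelihood test, no covariate) on genes that reached 10 counts in 1 or more pools. A call required both an adjusted p-value (Benjamini-Hochberg) up to 0.05 and a change of 1.5-fold or more. A prior count of 2 was added for log2 CPM. The study's methods name DESeq2, which served as an alternative (version 1.42.0). For a single gene, an exact permutation test of rank sums over these 5 pools cannot give a two-sided p below 0.2. The edgeR script was tested on simulated data. Python 3.11.15 with numpy 2.4.6, pandas 2.3.3, matplotlib 3.10.9 and Biopython 1.88 made the tables, alignments and figures. Proteins were translated from the Ensembl canonical transcript of each gene and aligned globally with BLOSUM62, and ligand positions were carried over from Car2.

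The members, the transport lists and the marker lists were chosen with earlier results of these data known. Named genes were all 16 carbonic anhydrases, the called genes and up to 6 largest differences of the transport lists, the most abundant and the zero-count markers, and the 5 nearest profiles of Car6 and of the members with the highest and the lowest log2 fold change. Markers named beyond that were chosen after their values were seen. The alternatives were DESeq2's size factors, DESeq2's Wald test, filterByExpr, no count filter, no fold change minimum, the replicate number as a block and each pool left out. Proteomic data were not analysed here, and results for some genes and sequences are not reported.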

Additional observations from a re-analysis of the deposited data

How the results depend on the processing

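The number of genes called, 157, was 927 with DESeq2's Wald test and 360 without the count filter, and ran from 1 to 217 with a pool left out (1 without DBA/2J pool 2, 217 without Gpnmb+ pool 1). Of the 8 carbonic anhydrases 1 was called, against 4 with DESeq2 (Car3, Car4, Car6 and Car12), 2 without the count filter (Car3 and Car6) and 0 to 3 with a pool left out. Of the bicarbonate and proton carriers 2 were called, against 6 with DESeq2 and 0 to 2 with a pool left out. Of the aqueous humor secretion genes 0 were called, against 4 with DESeq2, 2 without the count filter (Aqp4 and Atp1b3) and 0 to 3 with a pool left out. Where a Gpnmb+ pool was left out, the lone library was assumed to vary like the DBA/2J pools. With the replicate block, which uses only the 2 pool numbers that both genotypes share, 220 genes were called, 2 of the 8 carbonic anhydrases (Car3 and Car6), 1 of the carriers (Slc4a11) and 0 of the secretion genes. Same-numbered pools deviated together with r = 0.279 and 0.254 across genes, but nothing states that a number marks a shared day or litter, so the samples share only a number. The cause of these changes was not tested.

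The signs of Car2, Car3, Car4, Car6, Car8 and Car12 were the same in all 10 settings tried for each, while Car13 changed sign in 2 and Car14, at 0.00, lay on either side of 0. With the canonical transcript length in place of merged exons, an alternative chosen after seeing the data, Car14 led Car13 in DBA/2J (30.8% and 25.0% of the family level), and Car3 still led in Gpnmb+ (34.1%), while the order of Car2, Car3, Car6 and Car8 moved. Car4, with 14 to 88 counts per pool, and the genes below it are limited by depth.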
